A study of Homo sapiens with 9 samples.

Results

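The comparison set untransfected LNCaP cells against LNCaP cells that carried a control vector and had been sorted, within each androgen treatment. LNCaP is an established line from a human prostate cancer that makes prostate-specific antigen and answers to androgen. It used 4 of the 9 arrays of the series, 1 array per group: from the inhibitor experiment, cells held for 48 h without androgen, in medium with 5% stripped serum (untransfected, no DHT) and deprived cells given 100 nM dihydrotestosterone (DHT) for 16 h (untransfected, DHT); from the shRNA experiment, cells that had received a vector for green fluorescent protein (GFP) with the control hairpin (sh-control), were then deprived, given vehicle or 100 nM DHT for 16 h, and collected as GFP-positive cells by flow sorting. Androgen deprivation was common to all 4 groups, and nothing in the labels names a vehicle for the untransfected cells without DHT. The other arrays came from untransfected cells grown in 10% serum (steady state), from untransfected cells given etoposide or merbarone with DHT, and from sorted cells with a hairpin against TOP2B (sh-TOP2B) with vehicle or DHT.

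Experiment, transfection, sorting and RNA integrity all changed together between the 2 sides, so these cannot be told apart, and every difference in this text is a difference between arrays side by side. With 1 array per group, the 2 matched pairs (without DHT and with DHT) were the only repetition. A limma p-value here sets the size of the difference against a standard error. That error rests mostly on a variance shared across genes, and only in part on how well the gene's own 2 pairs repeat each other. For H3C8 the pairs gave -0.80 and -0.81, yet the standard error was 0.17. A gap between the pairs can also hold a different response to DHT on the 2 sides. A small p-value does not show that separate cultures would repeat the difference.

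Cells that divide transcribe the mitotic genes late in the cycle and the genes of DNA synthesis at its start, and both groups are shut off when cells leave the cycle. In LNCaP cells, androgen deprivation is known to slow division, and DHT acts through the androgen receptor to induce genes such as KLK3. Inflammatory genes are driven largely by NF-kB, and interferon-stimulated genes by a cascade that starts when cells sense foreign nucleic acid or an interferon outside the cell.

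Signs of RNA integrity and of the array signal moved with the comparison. The difference between the 3' and 5' control probe sets of beta-actin, which grows as RNA is broken or copied short, was 0.47 and 0.46 (log2) in the untransfected cells without and with DHT and 3.09 and 2.67 in the sh-control cells. For GAPDH it was 0.17 and 0.20 against 0.64 and 0.52. The 18S ribosomal RNA control stood at 7.51 and 7.91 against 12.67 and 12.69, and the 28S control at 11.79 and 11.93 against 9.02 and 9.0. The arrays' upper quartiles were 7.83 and 7.82 against 8.22 and 8.23 although their medians lay within 5.65 to 5.71. Correlation over probe sets was 0.995 within the untransfected pair, 0.984 within the sh-control pair and 0.907 and 0.902 across the matched pairs. How much of any difference came with these signs was not tested.

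Of 11865 genes tested, 4668 (39.3%) were higher and 2953 (24.9%) lower in sh-control cells by limma at an adjusted p under 0.05, so that 64.2% were called in either direction. A log2 difference of at least 1 in both pairs, which is the size rule used below and carries no test, was met by 2202 genes (18.6%) in the higher and 1064 (8.97%) in the lower direction. Only 3 genes differed by at least 1 in opposite directions: CSGALNACT1, KLHL29 and OPRK1. The median difference of all genes tested was 0.18 and the median standard error (SE) 0.16, all on the log2 scale. The split between higher and lower calls depended on the scaling: 3612 higher and 4090 lower when the 4 arrays were quantile-normalized again, with the median of all genes at -0.07, and 3423 higher and 3979 lower when the arrays were centred on ribosomal protein genes, with that median at -0.10. The median of a gene list is therefore also given after subtracting the median of all genes, as its excess over all genes, where a list is described at length. In single pairs of arrays, a difference of at least 1 between the experiments was found for 2657 higher and 1303 lower genes without DHT and for 2596 and 1472 with DHT. For DHT against no DHT, a difference of that size was seen upward for 29 genes and downward for 5 in untransfected cells, and for 250 and 213 in sh-control cells.

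**Figure D1:**
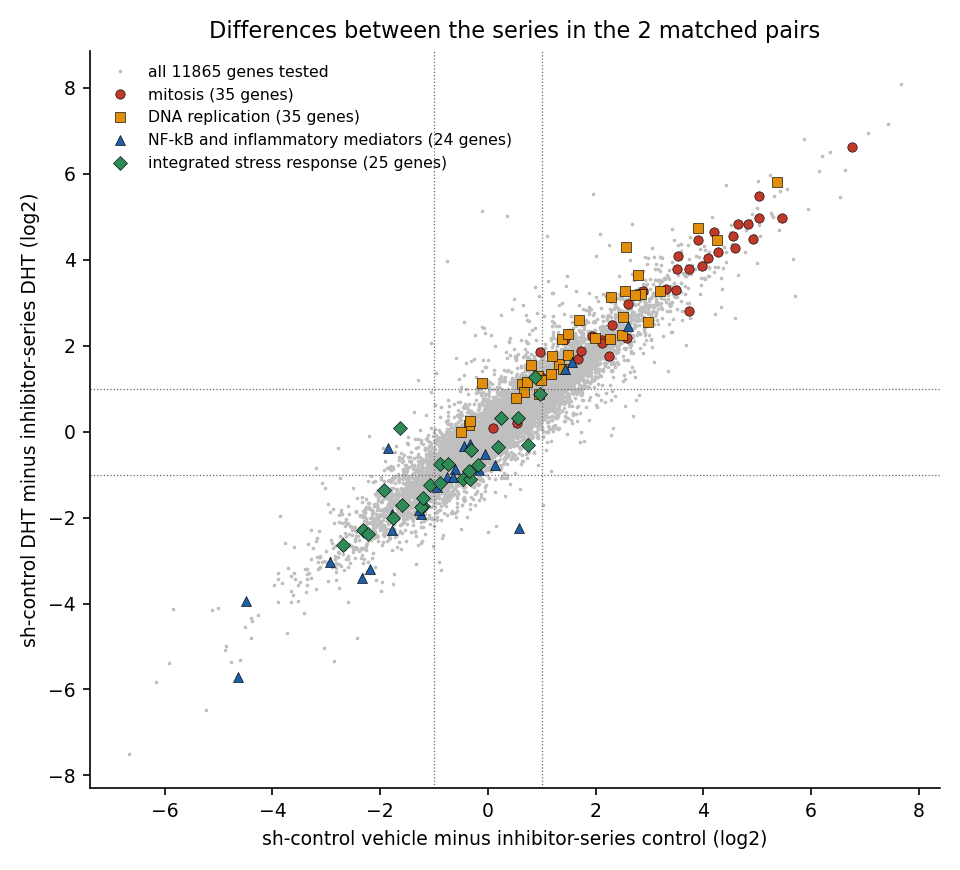
Log2 difference between sh-control and untransfected cells for each gene tested, without DHT (horizontal axis) and with DHT (vertical axis). Grey points are all 11865 genes and coloured symbols are members of 4 gene lists, dotted lines mark a difference of 1. Points lie along the diagonal, mitosis and replication genes in the upper right and NF-kB and stress response genes in the lower left.

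Probe sets for the same gene often went apart in this comparison. Among 6719 genes with several probe sets above the array median (a level below it is called dim here, and a difference on a dim level is given with that level raised to the median, as a bound, while its SE and p-value come from the unraised levels), 3399 (50.6%) had probe sets of both signs. The median spread between probe sets of a gene was 1.40 for the difference between the experiments, but 0.23 for the DHT difference in untransfected cells and 0.36 for the DHT difference in sh-control cells. Every probe set was higher for 2053 of these genes (30.6%) and lower for 1267 (18.9%). All probe sets passed a difference of 1 in both pairs for 300 genes (4.46%) in the higher and 131 (1.95%) in the lower direction. Each gene below is given by its brightest probe set, and the range over its probe sets is given where it turns the sign.

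Genes of mitosis were far higher in sh-control cells. Of 35 listed genes tested, 33 were higher and 0 lower by limma, and 31 were past 1 in both pairs, against 39.3% and 18.6% of all genes. The median difference of the list was 3.51 without DHT and 3.31 with DHT, beside 0.20 and 0.14 for all genes, an excess of 3.22. The median level of the list was 5.95 and 6.03 in untransfected cells, 9.13 and 9.36 in sh-control cells, 8.99 and 9.30 in sh-TOP2B cells, and 10.50 in untransfected cells at steady state. The deprived untransfected cells were thus near the array median for these genes, and all sorted arrays lay between them and the cells grown in full serum. In bulk RNA, fewer dividing cells and less of these RNAs per cell cannot be told apart.

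BIRC5, which encodes survivin of the chromosomal passenger complex, stood at 4.84 and 4.98 in untransfected cells without and with DHT and at 11.59 and 11.60 in sh-control cells. Both untransfected values were dim, so the difference was at least 5.94 (at least 61.4-fold; SE 0.16, limma adjusted p = 2.1e-05), and its 4 probe sets gave 3.10 to 6.68. CCNA2, the cyclin A that acts in S and G2 phase, was at 5.53 and 5.96 against 10.56 and 10.94, a difference of at least 4.94 (SE 0.16, adjusted p = 2.7e-05). The groups did not overlap for either gene, and DHT moved neither by as much as 1 on either side.

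PTTG1, which encodes securin, was at 7.78 and 7.78 against 12.36 and 12.05 (difference 4.43, SE 0.14, adjusted p = 2.7e-05). HMMR, a spindle protein that also binds hyaluronan, was at 6.17 and 5.94 against 10.37 and 10.58 (difference 4.42, SE 0.18, adjusted p = 3.7e-05), with 4.64 by its second probe set. TOP2A, the topoisomerase II that is made in dividing cells and condenses chromosomes, was dim at 4.42 and 4.5 in untransfected cells and at 8.97 and 9.05 in sh-control cells, at least 3.36 higher. All of these were again high in the sh-TOP2B cells, where BIRC5 was at 11.39 and 11.56 and TOP2A at 8.82 and 9.17.

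CDK1, the kinase that starts mitosis, was at 10.39 and 10.54 against 12.07 and 12.24 (difference 1.69, SE 0.10, adjusted p = 6.1e-05). CCNB1, its cyclin partner, was at 8.85 and 9.32 against 11.43 and 11.48 (difference 2.38, SE 0.15). These 2 genes were well above the array median in deprived untransfected cells as well, unlike BIRC5 and TOP2A. MKI67, which encodes the Ki-67 protein used to count dividing cells, was the exception: 5.28 and 6.17 against 5.82 and 6.38, a difference of 0.38 (SE 0.22, adjusted p = 0.17), with -0.88 to 0.38 over its probe sets and 8.71 at steady state. CENPA was the other mitotic gene tested that did not pass, at 0.09.

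Of the 16 mitosis genes with several probe sets above the array median, 14 were higher by every probe set and 10 were past 1 in both pairs by every probe set, against 4.46% of all such genes. These 10 were ANLN, AURKA, BIRC5, CCNA2, CCNB1, CENPF, HMMR, NEK2, NUSAP1 and TOP2A. Genes with several such probe sets were also ranked by the smallest difference that any of their probe sets showed. This ordering was chosen after the values were seen and used unraised levels. TOP2A stood first and NCAPG, a condensin subunit, second, but both were dim in untransfected cells, so their places rest on dim levels. NCAPG was dim at 3.97 and 4.28 against 10.13 and 10.34, at least 4.58 higher. RRM2 and HMMR came next, and neither was dim on the 4 arrays by its brightest probe set.

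**Figure D2:**
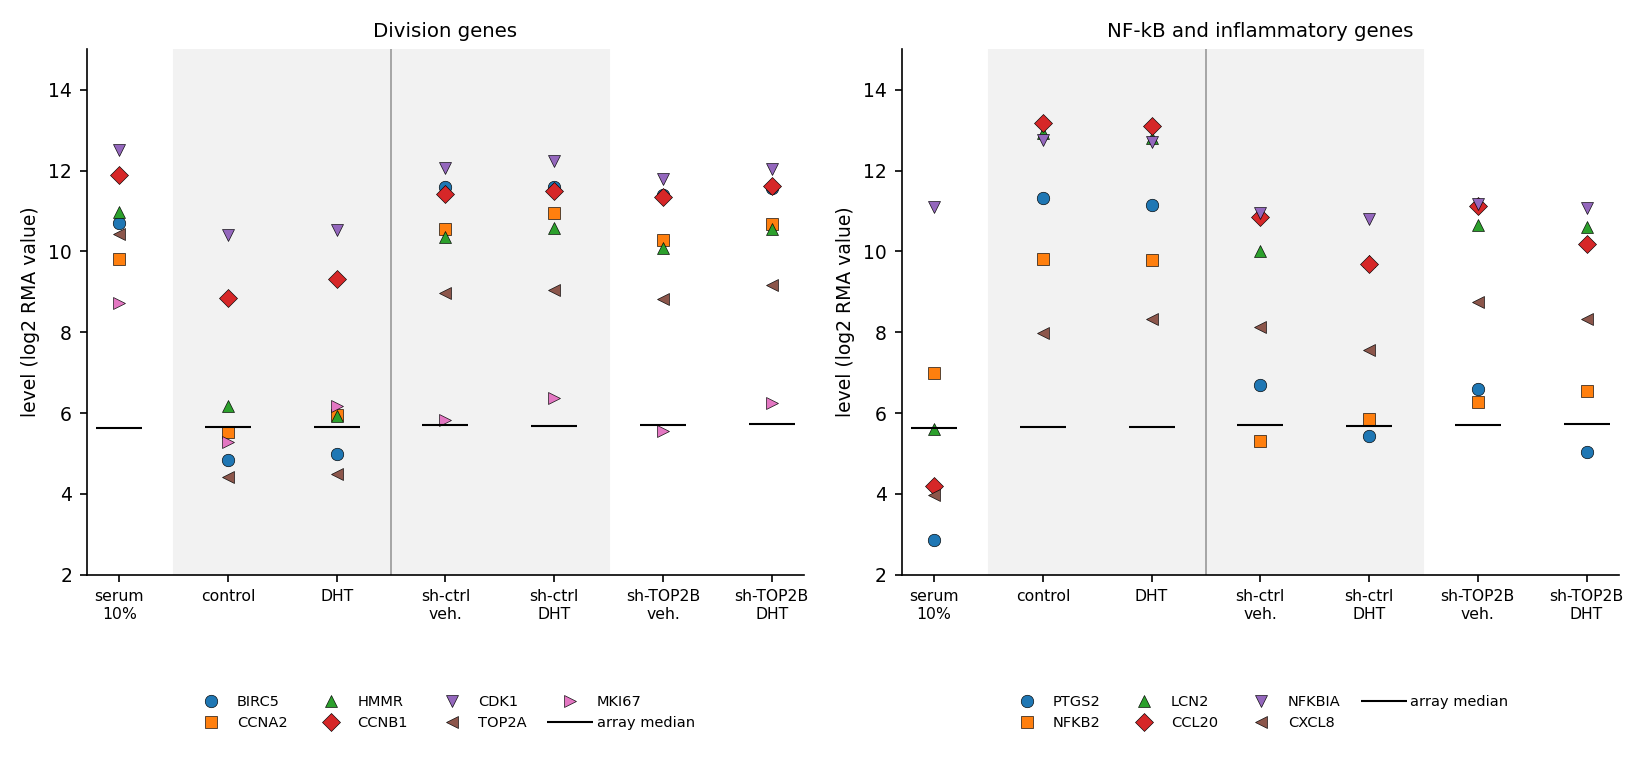
Levels (log2 RMA values) of 7 division genes and 6 inflammatory genes on each of 7 arrays, with short black lines at the array median. The shaded band holds the 4 arrays compared. Division genes other than MKI67 stand higher on the sorted arrays and at steady state than in deprived untransfected cells, and PTGS2, NFKB2, LCN2, CCL20 and NFKBIA stand highest in the deprived untransfected cells.

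The upstream sequence of mitotic genes is known for a pair of elements, the cell cycle genes homology region (CHR, searched as TTTGAA) and the CCAAT box (searched as CCAAT). Through the CHR, a repressor complex holds these genes down in resting cells. Both motifs were searched on both strands in the 250 bases before the RefSeq start of each gene. CHR was found for 17 of the 30 mitosis genes with a promoter entry (56.7%), for 1 of 32 replication genes (3.12%) and for 4383 of 27305 genes in all (16.1%). CCAAT was found for 25 of 30 mitosis genes (83.3%), 20 of 32 replication genes (62.5%) and 10102 of all genes (37.0%). A match is a description of letters and was not tied to binding by any measurement here. The 100 bases before the start are printed from RefSeq (build GRCh38.p14), 5′ to 3′ on the gene's strand with the motifs in capitals, for 5 mitosis genes past 1 in both pairs, because in each a CHR lies within 34 bases of the start and a CCAAT box lies upstream of it. They are HMMR (chr5:163460532-163460631, plus strand), KIF11 (chr10:92593030-92593129, plus strand), KIF4A (chrX:70290004-70290103, plus strand), PRC1 (chr15:90994536-90994635, minus strand) and CCNB2 (chr15:59105046-59105145, plus strand).
HMMR: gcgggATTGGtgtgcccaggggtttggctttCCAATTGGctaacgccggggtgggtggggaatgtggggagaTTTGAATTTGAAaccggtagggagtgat
KIF11: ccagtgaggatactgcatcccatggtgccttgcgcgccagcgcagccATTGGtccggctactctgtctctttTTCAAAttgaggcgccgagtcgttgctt
KIF4A: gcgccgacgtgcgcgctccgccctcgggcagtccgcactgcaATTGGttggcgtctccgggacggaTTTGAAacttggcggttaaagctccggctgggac
PRC1: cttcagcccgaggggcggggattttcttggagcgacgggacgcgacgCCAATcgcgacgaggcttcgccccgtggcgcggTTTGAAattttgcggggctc
CCNB2: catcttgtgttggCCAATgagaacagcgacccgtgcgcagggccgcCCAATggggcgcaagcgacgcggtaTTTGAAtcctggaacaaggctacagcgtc

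In these stretches the first base of the CHR nearest the start lay 22 bases before it in HMMR, 28 in KIF11, 34 in KIF4A, 20 in PRC1 and 29 in CCNB2. The 5 genes, picked for their sequence and not by the naming rule, differed as follows. KIF11, a motor that separates spindle poles, was dim at 4.33 and 4.25 in untransfected cells and at 9.36 and 9.73 in sh-control cells, at least 3.89 higher. KIF4A, a chromosome-bound motor, was dim at 4.30 and 4.70 against 9.13 and 9.54, at least 3.68 higher. PRC1, which bundles microtubules in the dividing cell's midzone, was at 6.76 and 6.85 against 9.07 and 9.32, 2.39 higher. CCNB2, a second B cyclin, was at 6.4 and 6.20 against 9.90 and 10.00, 3.65 higher. In all 5 genes the lower sh-control value exceeded the higher untransfected value. The 5 were taken from mitosis genes that already met the size rule upward. Their separation therefore came largely with the choice and is no further evidence.

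DNA replication genes moved with the mitotic genes, by less. Of 35 tested, 31 were higher and 0 lower by limma, and 23 were past 1 in both pairs. Shares of all genes were 39.3% higher, 24.9% lower and 18.6% past 1 upward. The median difference was 1.48 without DHT and 2.16 with DHT, an excess of 1.60 over all genes. The median level was 7.02 and 7.08 in untransfected cells, 8.96 and 9.59 in sh-control cells and 9.71 at steady state. DHT thus went with a higher level of this list in sorted cells, while the untransfected pair stayed close together.

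RRM2, the small subunit of ribonucleotide reductase that makes deoxynucleotides, was at 5.84 and 6.09 in untransfected cells and 11.20 and 11.90 in sh-control cells, 48.0-fold higher (difference 5.59, SE 0.17, adjusted p = 2.7e-05). GINS1 and GINS3 encode subunits of the complex that holds the replicative helicase together. GINS1 was at 6.65 and 6.87 against 10.90 and 11.33 (difference 4.35, SE 0.15), and GINS3 was dim at 5.07 and 5.00 against 8.96 and 9.73 (at least 3.69 higher). RFC3, of the clamp loader, was at 7.02 and 6.80 against 9.81 and 10.45, with 3.22 by the probe set used and down to 0.98 by its others. PCNA, the sliding clamp, differed far less: 10.66 and 10.69 against 11.18 and 11.46 (difference 0.64, SE 0.12, adjusted p = 0.0038).

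The helicase subunits showed how far members of the same complex can differ on these arrays. MCM2 differed by 1.45, MCM5 by 1.63, MCM4 by 3.02, MCM7 by 1.12, MCM3 by 0.87 and MCM6 by 0.80. The 5 probe sets of MCM4 ran from -0.91 to 4.82, the pair for MCM7 from -0.55 to 1.12 and the pair for MCM6 from 0.80 to 4.43, so the order of the subunits depended on the probe set. POLA2, LIG1, CHAF1A and GINS4 did not pass the test. Of 19 replication genes with several probe sets, 13 were higher by every probe set and 9 past 1 by every probe set (CDC6, CDT1, GINS3, MCM10, RFC2, RFC5, RRM2, TK1 and TYMS). Among all such genes these shares were 30.6% and 4.46%.

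Of 19 G1 regulators, 14 were higher, 1 lower and 9 past 1 upward by their brightest probe sets (median difference 0.94 and 1.45, an excess of 0.98 over all genes). The shares of all genes were 39.3%, 24.9% and 18.6%. The median of this list was 1.16 by the brightest probe sets and 0.12 when each gene took the median of its probe sets. The list therefore has no settled shift. Of its 13 genes with several probe sets, 7 had both signs, near the 50.6% of all such genes. By every probe set, 6 were higher and 0 lower, beside 30.6% and 18.9% of all such genes. SKP2, which marks the inhibitor p27 for destruction, was at 7.5 and 7.87 against 11.28 and 11.53 (difference 3.72, SE 0.14), but its 3 probe sets ran from -0.15. RBL1, a pocket protein, was at least 3.05 higher. CDC25A, a phosphatase that frees cyclin-dependent kinases, was at 5.68 and 6.73 against 8.35 and 9.52 (difference 2.73). CDK2 was 2.33 higher by its brightest probe set and -1.71 by the other. The gene that was lower was CDKN1A, which encodes the inhibitor p21: 11.62 and 11.25 against 11.25 and 10.30 (difference -0.66, SE 0.16, adjusted p = 0.010). Its untransfected value with DHT and sh-control value without DHT were nearly equal. No G1 regulator with several probe sets was past 1 by all of them.

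Break repair genes, many of which are made in S phase, were higher for 13 of 24 and lower for 4, with 10 past 1 upward and 2 downward, beside 39.3% of all genes higher, 24.9% lower and 18.6% past 1 upward. EXO1, an exonuclease, was at least 2.93 higher, and MDC1, RAD52 and FANCI were 2.88, 2.87 and 2.47 higher by their brightest probe sets. Their other probe sets reached down to 0.56, -0.29 and 0.10. Histone genes showed no shared direction: of 10 tested, 2 were higher and 3 lower. H2AC8 was 2.49 higher, H2BC4 differed by -1.44, H3C8 by -0.80 and H2BC21 by 0.29. Histone genes have near-identical copies, so which copy a probe set reads is uncertain.

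**Figure D3:**
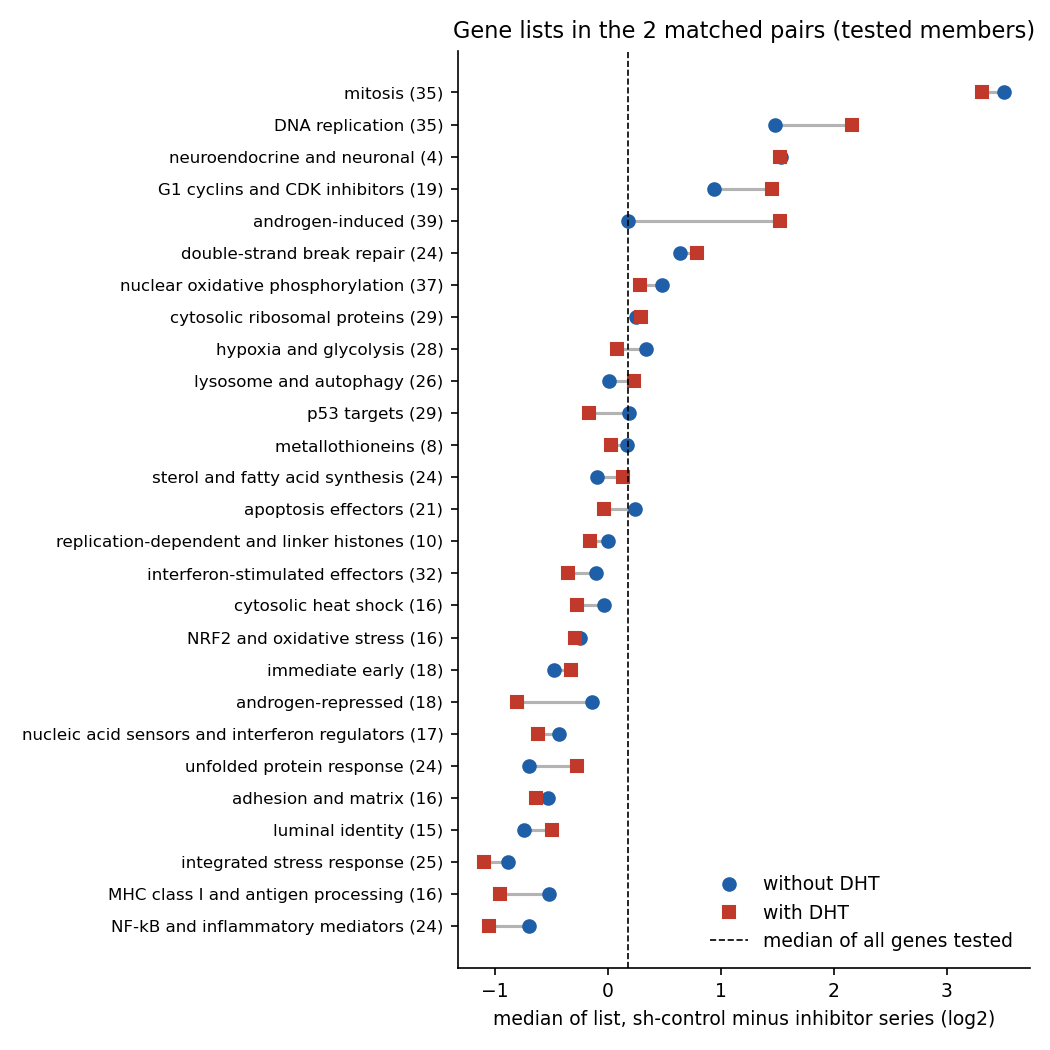
Median log2 difference between sh-control and untransfected cells for 27 gene lists, without DHT (circles) and with DHT (squares), with the number of genes tested in parentheses. The dashed line is the median of all genes tested (0.18). Mitosis lies farthest to the right, with replication and the 4 neuroendocrine genes next, NF-kB and inflammatory mediators, antigen processing and the integrated stress response among the lists farthest to the left, and the androgen-induced list is the one whose medians lie farthest apart.

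NF-kB and inflammatory genes were mostly lower in sh-control cells. Of 24 tested, 15 were lower and 3 higher by limma, and 9 were past 1 downward and 3 upward in both pairs, against 24.9% and 8.97% of all genes in the lower direction. The median difference was -0.70 without DHT and -1.06 with DHT, or -1.05 relative to all genes. The median level was 8.62 and 8.97 in untransfected cells, 8.06 and 7.45 in sh-control cells, 9.22 and 8.39 in sh-TOP2B cells and 5.61 at steady state. Deprived untransfected cells therefore had these genes far above their own steady state, and the sh-control cells stood between.

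PTGS2, the inducible cyclooxygenase that makes prostaglandins, was at 11.32 and 11.15 in untransfected cells and at 6.68 and 5.45 in sh-control cells, so that it fell by at least 5.05 (SE 0.26, adjusted p = 4.6e-05). It was at 2.86 at steady state and at 6.59 and 5.04 in sh-TOP2B cells, and its 2 probe sets gave -5.17 and -6.53. CCL20, a chemokine that draws lymphocytes and dendritic cells, was at 13.18 and 13.09 against 10.85 and 9.69 (difference -2.87, SE 0.23, adjusted p = 0.00016). LCN2, an iron-binding protein of the acute phase, was at 12.93 and 12.80 against 10.00 and 9.77 (difference -2.98, SE 0.10, adjusted p = 2.7e-05). At steady state CCL20 was at 4.19 and LCN2 at 5.6, so both were dim there and strong in every deprived sample.

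Among the NF-kB subunits and inhibitors, NFKB2 was at 9.80 and 9.80 against 5.32 and 5.85 (mean of raised levels -4.03, SE 0.20), but only -0.37 by its other probe set. NFKBIA, the inhibitor that NF-kB itself induces, was at 12.75 and 12.72 against 10.96 and 10.80 (difference -1.85, SE 0.09, adjusted p = 4.4e-05), while its other probe set gave 1.06. NFKB1 differed by -2.70 and RELB by -1.83 with dim levels raised. The genes past 1 in the higher direction were SOD2 (2.53), a mitochondrial superoxide dismutase, CXCL16 (1.60), a membrane-bound chemokine, and TNFAIP2 (1.45). These 3 and the 2 subunits before them were named after their values were seen.

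CXCL8, the neutrophil attractant interleukin 8, did not separate the groups by its brightest probe set: 7.99 and 8.33 against 8.13 and 7.56 (difference -0.31, SE 0.24, adjusted p = 0.30). Its other probe set was lower in sh-control cells in both pairs, at 6.93 and 6.98 against 5.79 and 6.03. IL6 was dim on all 4 arrays, at 4.27 and 4.27 against 3.96 and 3.67, and has no difference here. Of 9 inflammatory genes with several probe sets, 7 were lower by every probe set and 0 higher, and PTGS2 alone was past 1 by all of them. Among all such genes, 18.9% were lower by every probe set and 1.95% past 1 downward. In the 250 bases before the start, a single fixed form of the kappa B decamer was searched on both strands. It was found for 2 of 16 listed genes with a promoter entry (NFKB2 and TNFAIP3) and for 0.216% of all genes. Other forms of the site were not searched, so a gene without a match may still hold one.

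Genes for MHC class I and antigen processing, which load peptides for display to T cells, were lower for 11 of 16 and higher for 2, with 5 past 1 downward, beside 24.9% of all genes lower and 8.97% past 1 downward. The median difference was -0.52 and -0.95, or -1.02 relative to all genes. HLA-B was at 13.56 and 13.54 in untransfected cells and 11.70 and 11.38 in sh-control cells (difference -2.01, SE 0.09, adjusted p = 4.2e-05). HLA-C was at 13.49 and 13.49 against 11.76 and 11.53 (difference -1.85, SE 0.09), HLA-F at 11.98 and 11.86 against 10.28 and 9.96 (difference -1.80, SE 0.11), and HLA-E at 11.01 and 10.97 against 9.61 and 9.04 (difference -1.67, SE 0.16). The first 3 were past 1 by every probe set. Class I genes are close copies, so their probe sets are not separate evidence for each gene.

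HLA-DRA, the alpha chain of an MHC class II molecule, was at 11.12 and 11.23 against 6.27 and 6.23 (difference -4.93, 30.4-fold, SE 0.15, adjusted p = 2.7e-05), and its 2 probe sets gave -4.40 and -4.93. It was at 4.61 at steady state and 7.30 and 7.41 in sh-TOP2B cells. The deprived untransfected cells given an inhibitor with DHT also had it above 8, at 10.51 with etoposide and 8.85 with merbarone. Of the 9 arrays, HLA-DRA was thus above 8 only on those of deprived untransfected cells, with or without an inhibitor.

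**Figure D4:**
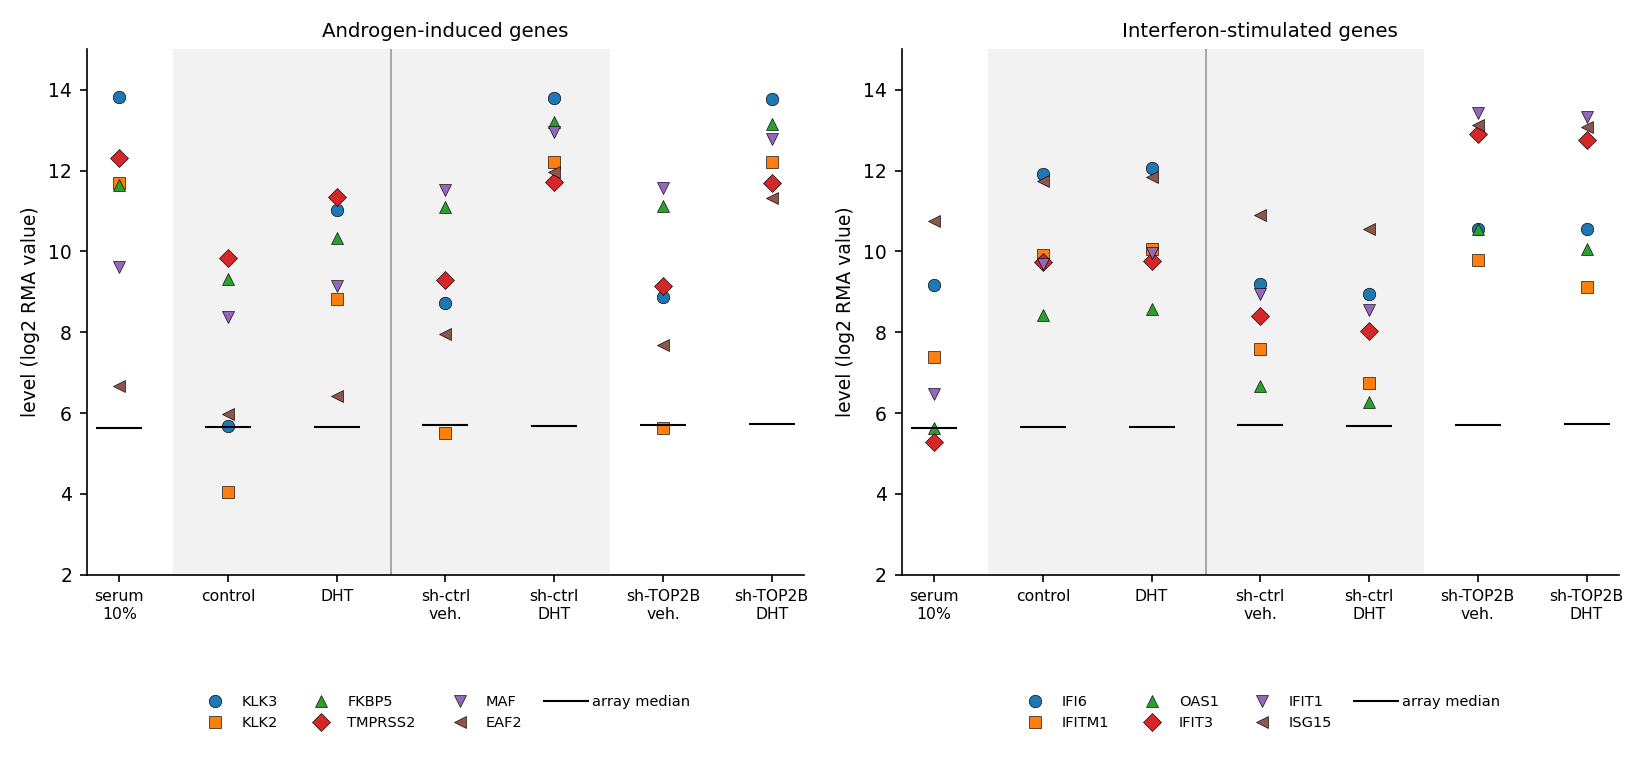
Levels (log2 RMA values) of 6 androgen-induced genes and 6 interferon-stimulated genes on each of 7 arrays, with short black lines at the array median and a shaded band over the 4 arrays compared. KLK3, FKBP5, MAF and EAF2 stand higher in sh-control cells at each treatment. KLK2 does so with DHT and lies below the array median on both sides without it. The interferon-stimulated genes stand highest on the sh-TOP2B arrays except IFI6 and IFITM1.

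Interferon-stimulated effectors split. Of 32 tested, 13 were lower and 5 higher by limma, with 4 past 1 downward and 1 upward, against 24.9% of all genes lower by limma and 8.97% past 1 downward. The median difference was -0.11 without DHT and -0.36 with DHT, or -0.34 relative to all genes. The median level was 8.66 and 8.63 in untransfected cells, 8.55 and 8.58 in sh-control cells, 10.46 and 10.13 in sh-TOP2B cells and 6.82 at steady state.

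IFI6, which limits viral replication at the endoplasmic reticulum, was at 11.91 and 12.07 in untransfected cells and 9.19 and 8.94 in sh-control cells (difference -2.92, SE 0.14, adjusted p = 4.3e-05). IFITM1, which blocks viral entry, was at 9.90 and 10.06 against 7.58 and 6.74 (difference -2.82, SE 0.25, adjusted p = 0.00021). OAS1, a sensor of double-stranded RNA, was at 8.42 and 8.57 against 6.67 and 6.28 (difference -2.02, SE 0.20). IFIT3, of a family that binds foreign RNA, was at 9.73 and 9.75 against 8.39 and 8.04 (difference -1.53, SE 0.16). In sh-TOP2B cells OAS1 was at 10.55 and 10.07 and IFIT3 at 12.90 and 12.77, above both sides of the comparison.

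IFIT1 was at 9.68 and 9.96 against 8.94 and 8.55 (difference -1.08, SE 0.19, adjusted p = 0.0036) and ISG15, a ubiquitin-like protein, at 11.74 and 11.85 against 10.89 and 10.55 (difference -1.08, SE 0.14, adjusted p = 0.00078). Both groups of values were apart for each gene, but neither reached 1 without DHT. PARP14 was the gene past 1 upward (1.36), and MX1, OAS3, RSAD2 and OASL did not pass the test. These last 5 were named after their values were seen.

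The interferon response element was searched by its consensus on both strands in the 250 bases before the start. It was found for 20 of 26 listed effectors (76.9%), 7 of 14 antigen processing genes and 1014 of 27305 genes in all (3.71%). A stretch that ends at the start is printed from RefSeq (GRCh38.p14, the gene's strand, matches in capitals) for 3 genes that were lower in sh-control cells. These are IFI6 (chr1:27672193-27672362, minus strand), IFIT1 (chr10:89392493-89392622, plus strand) and IFITM1 (chr11:313940-314039, plus strand), which hold 3, 2 and 1 matches in the stretch shown.
IFI6: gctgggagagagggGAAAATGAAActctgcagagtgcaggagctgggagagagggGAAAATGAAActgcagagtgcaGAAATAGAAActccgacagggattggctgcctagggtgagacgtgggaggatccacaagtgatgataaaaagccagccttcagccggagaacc
IFIT1: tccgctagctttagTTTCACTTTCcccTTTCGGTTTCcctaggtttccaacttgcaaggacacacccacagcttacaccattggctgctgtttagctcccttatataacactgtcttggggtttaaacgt
IFITM1: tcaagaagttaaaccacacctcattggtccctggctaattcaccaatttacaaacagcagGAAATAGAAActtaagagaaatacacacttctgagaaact

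Regulators upstream of the effectors were lower for 10 of 17 and higher for 3, with 5 past 1 downward and 1 upward (median difference -0.44 and -0.62, or -0.67 relative to all genes). The shares of all genes were 24.9% lower, 39.3% higher, 8.97% past 1 downward and 18.6% upward. IRF9, the DNA-binding part of the complex that interferon activates, was at 9.55 and 9.52 against 6.96 and 6.37 (difference -2.87, SE 0.19, adjusted p = 8.9e-05). ZNFX1, an RNA helicase that senses viral RNA, was at 9.96 and 9.99 against 8.05 and 7.74 (difference -2.08, SE 0.16). IRF7 differed by -1.40 (SE 0.16). EIF2AK2, the kinase PKR, went the other way, at 9.36 and 9.32 in untransfected cells (difference 1.56, SE 0.13, adjusted p = 0.00018). Sensors such as STING1, CGAS, IFI16, AIM2 and ZBP1 were dim on all 4 arrays.

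TNFSF10, which encodes the death ligand TRAIL, was among the largest falls. It was at 10.67 and 11.23 in untransfected cells and 6.27 and 6.42 in sh-control cells, 24.3-fold lower (difference -4.60, SE 0.17, adjusted p = 3.0e-05), with -3.08 to -4.60 over its 3 probe sets. It was at 10.41 and 9.82 in sh-TOP2B cells and 5.98 at steady state. Sorted cells with the control hairpin thus had it near its steady-state level, and sorted cells with the other hairpin did not.

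Androgen-induced genes differed mainly under DHT. Of 39 tested, 18 were higher and 9 lower, beside 39.3% and 24.9% of all genes. Past 1 were 13 upward and 1 downward, beside 18.6% and 8.97% of all genes. The median difference was 0.17 without DHT, close to the 0.20 of all genes, and 1.53 with DHT, where all genes had 0.14. The median level was 9.05 and 9.79 in untransfected cells without and with DHT and 9.33 and 11.39 in sh-control cells. The sh-TOP2B cells were at 9.55 and 11.33 and the steady state at 10.37. The step from no DHT to DHT was thus larger in both sorted populations.

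KLK3, which encodes prostate-specific antigen, was at 5.68 and 11.02 in untransfected cells and 8.72 and 13.80 in sh-control cells, 7.53-fold higher (difference 2.91, SE 0.14, adjusted p = 4.2e-05), with 1.93 to 3.24 over its 3 probe sets. By this probe set the untransfected value with DHT lay above the sh-control value without it. Another of its probe sets went from 7.92 to only 8.41 with DHT in untransfected cells and from 9.13 to 13.68 in sh-control cells, so the order of those values depended on the probe set. KLK2, a neighbouring kallikrein, was dim without DHT at 4.04 and 5.5 and reached 8.82 in untransfected and 12.21 in sh-control cells with DHT, a difference of 3.39 in that pair (limma adjusted p over both pairs = 0.0032). FKBP5, a chaperone that is a strong androgen target, was at 9.33 and 10.34 against 11.10 and 13.20 (difference 2.32, SE 0.24, adjusted p = 0.00038) and was past 1 by every probe set. Without DHT it already exceeded the level of DHT-treated untransfected cells.

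MAF, a transcription factor, was at 8.37 and 9.15 against 11.53 and 12.95 (difference 3.47, SE 0.17). EAF2, an elongation factor partner, was at 5.99 and 6.43 against 7.95 and 11.95 (difference 3.74, SE 0.74, adjusted p = 0.0052), which is 1.96 without and 5.52 with DHT. GREB1, a co-regulator of steroid receptors, was at 3.01 and 5.90 against 6.54 and 10.23 (at least 2.61 higher). TMPRSS2, a membrane protease, did not separate the groups by its brightest probe set: 9.84 and 11.35 against 9.28 and 11.71 (difference -0.10, SE 0.22, adjusted p = 0.71). Its other probe sets were lower in sh-control cells in both pairs, at -1.56 and -1.01 for the first and -0.91 and -1.09 for the second. The gene past 1 downward was KLK4, at 7.89 and 8.55 against 5.97 and 7.21 by its brightest probe set and 2.00 higher by another of its 5.

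Androgen-repressed genes had 6 of 18 higher and 9 lower, beside 39.3% and 24.9% of all genes, and 4 past 1 in each direction. Their median of -0.14 without and -0.81 with DHT changed sign with the filter on low genes, so no direction is given. PEG3, an imprinted zinc finger gene, was dim at 5.47 and 5.64 against 11.13 and 9.66 (at least 4.74 higher, SE 0.37), and at 12.28 at steady state. TMEM158 was at 10.10 and 9.36 against 7.43 and 6.13 (difference -2.95, SE 0.19), and BCHE, which encodes butyrylcholinesterase, differed by -2.05 (SE 0.17). CXCR4, a chemokine receptor, was 3.75 higher by its brightest probe set and -1.88 by another.

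The markers of a prostate luminal line were present on all 4 arrays, apart from KLK2 without DHT. HOXB13, a prostate lineage factor, was at 11.27 and 11.09 against 10.52 and 10.02, and FOLH1, prostate-specific membrane antigen, at 10.17 and 10.23 against 11.97 and 11.40 (difference 1.49, SE 0.17). Of 15 luminal genes tested, 10 were lower and 4 higher, with 3 past 1 in each direction (median difference -0.74 and -0.49, or -0.81 relative to all genes). The shares of all genes were 24.9% lower, 39.3% higher, 8.97% past 1 downward and 18.6% upward. CLDN4, a tight junction claudin, differed by -1.98 (SE 0.13) and ELF3, an epithelial factor, by -2.13 (SE 0.18), the latter with 1.06 by another probe set. ACP3, prostatic acid phosphatase, differed by -1.74 and by up to 4.16 over its probe sets.

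Many markers of other cells were dim, but not all. On all 4 arrays this held for 5 of 6 stromal, 2 of 4 endothelial, 2 of 4 basal, 3 of 4 leukocyte and 2 of 4 other epithelial markers named by a probe set. PTPRC, CD14 and LYZ of the leukocytes, CDH5 and KDR of the endothelium, KRT14 and KRT15 of basal cells, and DCN, LUM, COL1A2, COL3A1 and PDGFRB of stroma were all below the array median. Above it on all 4 arrays were VWF of the endothelium (7.35 and 7.79 against 7.12 and 6.07) and DST of basal cells (6.89 and 6.92 against 7.61 and 8.06). PECAM1 of the endothelium, CD3E of the leukocytes, and ESR1 and CDX2 of other epithelial lines were above it in untransfected cells and dim in sh-control cells. The summed level of the leukocyte markers was 7.02 and 6.96 in untransfected and 6.55 and 6.39 in sh-control cells (log2). For the endothelium it was 8.06 and 8.41 against 7.65 and 6.86, for stroma 8.70 and 8.73 against 9.58 and 9.86, where COL1A1 was the marker above the median, for basal cells 7.62 and 7.64 against 8.12 and 8.46, and for other epithelial lines 7.21 and 7.31 against 6.54 and 6.51. Their part in the differences was not tested.

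The integrated stress response, which turns on amino acid supply and chaperone genes through ATF4 when translation is throttled, was lower in sh-control cells. Of 25 genes tested, 17 were lower and 3 higher, with 10 past 1 downward and 0 upward, beside 24.9% of all genes lower, 39.3% higher and 8.97% past 1 downward (median difference -0.88 and -1.10, or -0.96 relative to all genes). DDIT3, the factor CHOP, was at 9.53 and 9.56 against 6.83 and 6.91 (difference -2.67, SE 0.16, adjusted p = 6.2e-05). SLC3A2, the heavy chain of amino acid exchangers, was at 10.97 and 10.85 against 8.65 and 8.56 (difference -2.30, SE 0.13). TRIB3, a pseudokinase, was at 9.77 and 9.96 against 8.0 and 7.96 (difference -1.88, SE 0.15), and CARS1, a tRNA synthetase, differed by -2.30 (SE 0.12). Of 13 of these genes with several probe sets, 9 were lower by every probe set, and ATF3, PSAT1 and TRIB3 were past 1 by all. Among all such genes, 18.9% were lower by every probe set and 1.95% past 1 downward by all. Levels on the sh-TOP2B arrays, at 7.42 and 7.12 for DDIT3, were near those of sh-control cells, and the steady state, at 9.59, near the deprived untransfected cells.

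The unfolded protein response list had 13 of 24 lower and 4 higher, with 4 past 1 downward and 1 upward (median difference -0.70 and -0.28, or -0.67 relative to all genes). For each list in this paragraph, the shares of all genes were 24.9% lower, 39.3% higher, 8.97% past 1 downward and 18.6% upward. SDF2L1, ATF6 and HERPUD1 differed by -1.89, -1.60 and -1.23, and PDIA4, a protein disulfide isomerase, by 2.60 with -0.33 by its other probe set. The heat shock list had 5 of 16 higher and 6 lower. DNAJB6 was 2.26 higher, HSPE1 and FKBP4 were each 0.88 higher, and BAG3 differed by -0.98. The metallothionein list, which also holds the metal-responsive factor MTF1 and the zinc transporter SLC30A1, had 8 genes tested, and its median changed sign with the scaling. MT1G was the metallothionein that was higher (0.74), and MTF1 was 0.78 higher by its brightest probe set and reached -0.51 by another. The NRF2 list had 4 of 16 higher and 8 lower, with PGD at -1.28, SLC7A11 at -1.05 and ME1 at -0.89. GCLM, a subunit of the enzyme that starts glutathione synthesis, was at -2.17 by its brightest probe set and reached 1.35 by another, so it has no settled direction.

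Immediate early genes were lower for 9 of 18 and higher for 6, beside 24.9% and 39.3% of all genes. Past 1 were 4 downward and 3 upward, beside 8.97% and 18.6%. IER3 was at 6.13 and 5.97 against 9.85 and 9.32 (difference 3.53, SE 0.18, adjusted p = 4.6e-05). ATF3, a stress-induced factor, was at 10.66 and 10.50 against 9.44 and 8.77 (difference -1.47, SE 0.17), and past 1 by every probe set. KLF6 and FOSL2 were 3.25 and 2.81 higher by their brightest probe sets and reached -1.32 and -1.29 by others, so neither has a settled direction.

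The p53 targets had 11 of 29 higher and 11 lower, and their median changed sign between the pairs. For this list and the apoptosis list below, the shares of all genes were 39.3% higher and 24.9% lower. AEN, an exonuclease, was at 8.32 and 8.32 against 10.22 and 10.13 (difference 1.85, SE 0.14). GDF15, a stress cytokine, was at 13.72 and 13.84 against 8.95 and 8.48 by its brightest probe set (difference -5.06, SE 0.16) and 3.11 higher by another. MDM2 and SPATA18, at 2.02 and 1.71, also had probe sets below zero. Apoptosis effectors had 5 of 21 higher and 6 lower: BAX was 1.30 higher, FAS differed by -1.55, and APAF1 was 2.77 higher with dim levels raised, but lower by another probe set.

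Metabolic lists gave smaller medians. Hypoxia and glycolysis genes were higher for 13 of 28 and lower for 8, near the 39.3% and 24.9% of all genes, and their median turned with the scaling. PFKFB3, which drives glycolysis through fructose bisphosphate, was at 6.06 and 6.10 against 10.59 and 10.76 (difference 4.59, SE 0.16, adjusted p = 2.7e-05). PDK1, HK2 and NDRG1 were 2.72, 2.66 and 2.32 higher. Sterol and fatty acid genes had 9 of 24 higher and 7 lower: EBP was 4.33 and HMGCS1 3.09 higher by their brightest probe sets, SREBF1 differed by -2.39 and FASN by -1.74, and each of the 4 had a probe set of the other sign. Oxidative phosphorylation genes were higher for 22 of 37 and lower for 5, beside 39.3% and 24.9% of all genes, and their median fell from 0.38 to 0.10 with ribosomal centring. ATP5MC3 was at 1.62, NDUFS4 at 1.34 and UQCRC1, of complex III, at -2.84, and SDHC was at 1.49 with -0.43 to 2.13 over its probe sets. Lysosome and autophagy genes had 9 of 26 in each direction, with ATG16L1 at 2.83, SQSTM1 at -1.95 (-2.24 to -0.26 over its probe sets), ATP6V0D1 at -1.48 and HEXA at -1.46.

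Ribosomal protein genes were higher for 16 of 29 and lower for 3, with 2 past 1 upward, beside 39.3%, 24.9% and 18.6% of all genes. Their median was 0.27, close to the 0.18 of all genes. RPL19, RPL22 and RPS7 were 1.06, 0.92 and 0.60 higher. RPLP2, of the ribosomal stalk, gave the largest difference of all genes tested, at 6.05 and 5.84 against 13.72 and 13.92 (difference 7.88, SE 0.15, adjusted p = 1.7e-05). It was at 7.23 at steady state and 13.75 and 13.79 in sh-TOP2B cells.

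Other genes with the largest rises were as follows. TCF3 was at 6.50 and 6.70 against 13.92 and 13.87 and at 7.64 at steady state, MIF-AS1 at 6.14 and 5.86 against 12.50 and 12.37, H3-3A at 6.15 and 6.53 against 12.79 and 12.62, and INHBC at 6.54 and 6.61 against 12.09 and 12.26. BOLA2 was dim at 4.87 and 4.94 against 11.93 and 11.89, TTC28-AS1 was at 5.96 and 5.87 against 11.26 and 10.87, and PSMC3IP at 6.24 and 6.43 against 11.49 and 11.52. Other probe sets gave -0.85 for TCF3, -0.25 for BOLA2, 0.30 for TTC28-AS1 and 2.21 for PSMC3IP. At steady state MIF-AS1 was at 6.68, H3-3A at 6.56, INHBC at 7.28, BOLA2 at 5.07, TTC28-AS1 at 6.82 and PSMC3IP at 8.43. BIRC5 and RRM2, the division genes among the 10 largest rises, were at 10.71 and 11.24 there.

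Among the largest falls, KRT20, a keratin of umbrella and gut epithelium, was at 12.01 and 11.88 against 5.35 and 4.37 (at least 76.0-fold lower), and at 4.24 at steady state. OR51E2, an olfactory receptor of the prostate, was at 11.61 and 11.26 against 5.7 and 5.87, with -5.29 to -6.51 over its 3 probe sets, and at 7.23 at steady state. FEZ1 was at 12.31 and 12.27 against 7.08 and 5.79 by the probe set used and 0.27 higher by the other. SERPINA3, an acute-phase protease inhibitor, was at 10.58 and 10.51 against 6.07 and 5.98 (difference -4.52, SE 0.16). CHI3L2, a chitinase-like protein, was at 10.42 and 10.27 against 5.53 and 5.18, and TMEM74B at 10.75 and 10.46 against 6.16 and 5.13. KRT20, FEZ1, SERPINA3, CHI3L2 and TMEM74B were lower at steady state than in deprived untransfected cells too.

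**Figure D5:**
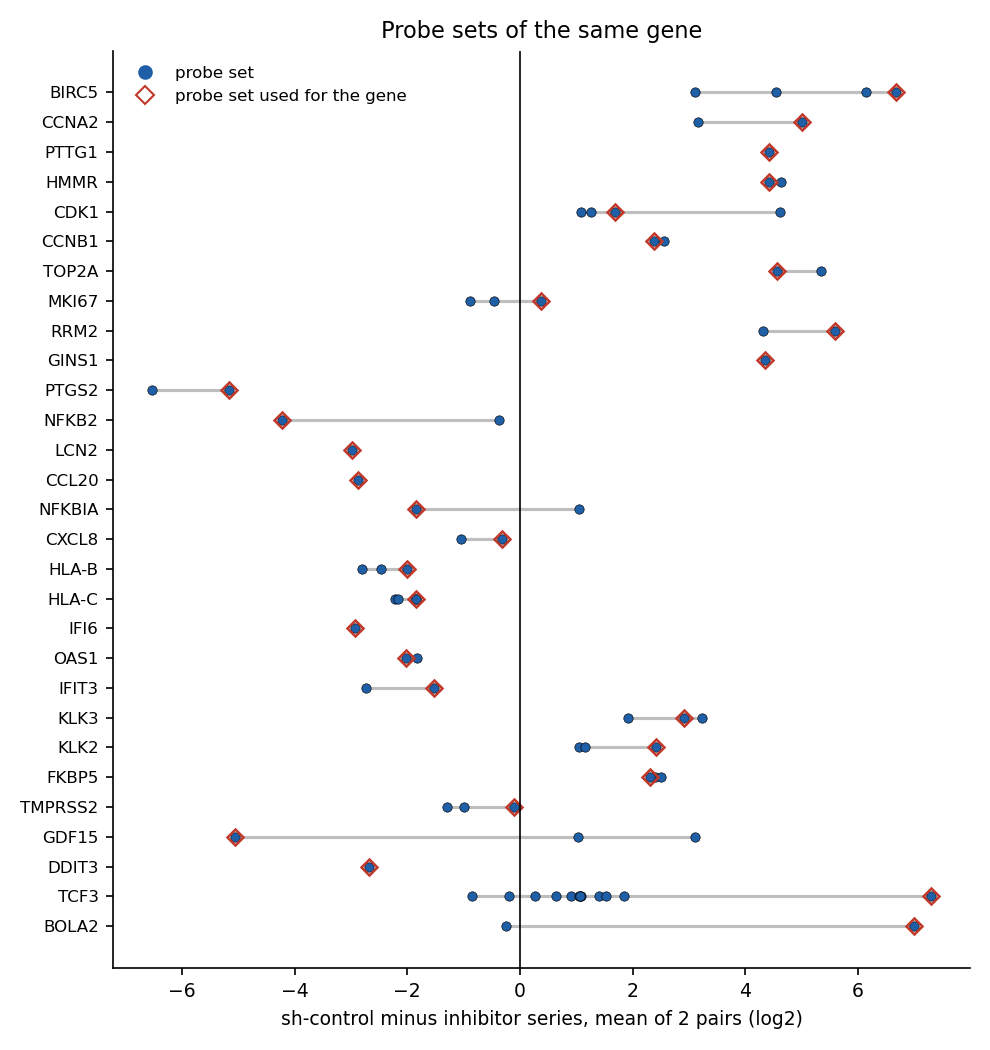
Mean log2 difference between sh-control and untransfected cells for each probe set of 29 genes, with a diamond on the probe set used for the gene. BIRC5, CCNA2, TOP2A, RRM2, PTGS2, HLA-B, KLK3 and FKBP5 keep their direction over all their probe sets, whereas GDF15, NFKBIA, TCF3, BOLA2 and MKI67 have probe sets on both sides of zero.

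Adhesion and matrix genes were lower for 10 of 16 and higher for 3, with 3 past 1 downward and 2 upward (median difference -0.53 and -0.64, or -0.76 relative to all genes). The shares of all genes were 24.9% lower, 39.3% higher, 8.97% past 1 downward and 18.6% upward. LAMB3, a laminin chain, was at 8.79 and 8.62 against 6.69 and 6.56 (difference -2.08, SE 0.17). ITGA2, a collagen receptor chain, differed by -1.5 (SE 0.28) by its brightest probe set and 0.03 by the other. TWIST1, a factor of mesenchymal cells, was at 7.28 and 7.64 against 10.37 and 11.70 (difference 3.57, SE 0.24, adjusted p = 8.7e-05), and SNAI2 was at 5.82 against 10.38 with DHT, 4.55 higher, and dim on both sides without DHT. Only 4 neuroendocrine genes were bright enough to test: ENO2, TUBB3 and UCHL1 were 1.76, 1.70 and 1.5 higher, and DDC differed by -1.17 with 0.30 by its other probe set.

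TOP2B, the target of the hairpin in the other sorted cells, did not separate the groups compared here. It was at 10.55 and 10.57 in untransfected cells and 10.54 and 10.87 in sh-control cells (difference 0.15, SE 0.13, adjusted p = 0.36, turning below zero under both other scalings), and at 10.09 and 10.01 in sh-TOP2B cells.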

How the data were processed

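The authors deposited log2 values of Affymetrix U133 Plus 2.0 arrays, made with RMA per the submitters' processing notes. Neither the version nor the set of arrays normalized together is stated there. RMA makes array distributions alike, so a shift shared by most genes would be removed. Of 54675 probe sets, 41097 had 1 gene symbol, 1801 several and 11777 none, and 41043 matched RefSeq. Each gene was represented by its brightest probe set, on average over the 9 arrays (19775 genes), and genes below the 40th percentile were left out (11865 tested). Some genes are not reported here.

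The 4 arrays were fitted in R 4.3.3 with limma 3.58.1, with treatment as block and an intensity trend (1 residual and 5.09 prior degrees of freedom), with two-sided p-values adjusted by Benjamini-Hochberg and called under 0.05. The code was tested on simulated data. Levels below the array median are dim; a difference on them is given with those levels raised to it, as a bound. Named genes are the 10 largest rises and falls, up to 4 per list over 27 lists, and 16 of 19 genes always named; others were picked after their values were seen. The members and lists were chosen with earlier results of these data known. The labels do not say that arrays came from separate cultures, and the number of arrays limits the precision.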

Additional observations from a re-analysis of the deposited data

Results flagged for a closer look

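For 3 named genes the sign of the difference between sh-control and untransfected cells, by the brightest probe set, was opposite in the 2 matched pairs. TMPRSS2 differed by -0.56 without DHT and 0.36 with DHT, while its other probe sets were lower in both pairs. TOP2B differed by -0.01 without DHT and 0.30 with DHT. CXCL8 differed by 0.14 without DHT and -0.77 with DHT, while its other probe set gave -1.14 and -0.95. With 1 array per group, the difference between the pairs was not tested for any of them.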

How the results depend on the processing

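With no filter on low genes, the genes lower by limma rose from 2953 to 4485, and those past 1 downward from 1064 to 1626; a filter at the 60th percentile left 610. Asking for every probe set left 300 genes past 1 upward and 131 downward, from fewer genes. The mitosis median was 3.04 by the median over probe sets, 3.09 with quantile normalization again, 3.12 centred on ribosomal protein genes and 3.00 with dim levels raised. The interferon effector median was -0.43, -0.49 and -0.44 under the first 3 of these and -0.36 with DHT alone. The NF-kB median was -1.15 with ribosomal centring.

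List medians that changed sign were those of p53 targets (-0.04 with no filter, -0.22 with quantile normalization, -0.19 with ribosomal centring, -0.16 with DHT), metallothioneins (-0.23 and -0.23 by these scalings), hypoxia (-0.14 with ribosomal centring), ribosomal proteins (-0.0018 so centred), sterol genes (-0.22 over probe sets, -0.11 and -0.26 by the scalings, -0.093 without DHT), lysosome genes (-0.14, -0.13 and -0.16 under the first 3), apoptosis effectors (-0.39 over probe sets, -0.013 with no filter, -0.0848 at the 60th percentile, -0.38 and -0.27 by the scalings, -0.036 with DHT), androgen-repressed genes (0.39 at the 60th percentile), histones (0.0025 without DHT) and neuroendocrine genes (-0.025 with no filter). Taking the median over probe sets turned GDF15 (2.93), CDK2 (-1.71), KLF6 (-0.47), MDM2 (-0.17), MTF1 (-0.15), CXCR4 (-1.12), ACP3 (0.51), SDHC (-0.16), APAF1 (-0.53) and MKI67 (-0.34). TOP2B turned to -0.17 with quantile normalization and -0.13 with ribosomal centring. The cause of these changes was not tested. The other main counts stayed within 1.5 times, but not always with the same direction in the lead: with quantile normalization again, 3612 genes were higher and 4090 lower by limma, and 1629 were past 1 upward and 1570 downward. The G1 list median fell from 1.16 to 0.12 by the median over probe sets.

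The labels give no replicate numbers, and arrays were paired by treatment, as the block of the fit. With 1 array per group, each pair alone stands in for leaving out a replicate.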
